A study of Danio rerio with 8 samples.

Results

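Skeletal muscle genes were followed in RNA sequencing of dissected zebrafish melanomas. The set held 6 of the 22416 genes of the deposited tables, chosen by Ensembl gene ID: ckma (ENSDARG00000035327), mylpfa (ENSDARG00000053254), mylz3 (ENSDARG00000017441), actc1b (ENSDARG00000099197), acta1b (ENSDARG00000055618) and tpma (ENSDARG00000033683). A table of gene names given with the data lists ckma, actc1b and tpma under these symbols, and gives mylpfa, mylz3 and acta1b the human-style names MYL11, MYL1 and ACTA1. The IDs were given in advance, but with earlier results of these data known, to show the spread of muscle transcripts between single tumours. Each of the 6 passed the filter on low values, a mean of at least 1 fpm, and acta1b passed only through its level in 1 tumour.

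The tumours came from fish labelled mitfa-/- and nras G12D, with all 8 on the same strain background, and were taken at an age of 10 to 12 weeks. Control tumours carried Tg(mitfa:egfp) (n = 3) and test tumours carried Tg(mitfa:dgat1a) (n = 5), so all 8 shared the mitfa mutation and the nras allele. The mitfa promoter, which is active in pigment cells, drove both transgenes, made with miniCoopR, a vector system that returns mitfa to pigment cells of mitfa mutants together with a gene of choice. The labels do not say whether each library came from a separate fish, so p-values measure only the spread between these samples.

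Skeletal muscle contracts when myosin thick filaments pull on actin thin filaments inside the sarcomere. Myosin heads carry light chains that tune their action, tropomyosin and troponin on the thin filament make contraction depend on calcium, and creatine kinase regenerates ATP beside the filaments. Genes for these proteins are among the most active in muscle fibres, while pigment cells are not known for them.

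The libraries held 20936089 to 26865735 reads assigned to the listed genes. Levels are given in fpm, a per-million signal scaled by the authors, in which 3 reads were worth 0.109 to 0.138. The name table calls 2 IDs DGAT1, and one of them, ENSDARG00000103503, was at 26.5 to 75.06 fpm in egfp tumours and at 2223 to 4160 fpm in dgat1a tumours. Pigment cell genes were present in every tumour, with pmela, a melanosome structural gene, at 1398 to 13275 fpm and the SOX10 ID at 667.4 to 1116 fpm. In egfp tumour 1 the 8 epidermal IDs summed to 399.7 fpm, against 1360 to 4848 fpm in the other 7 tumours. Of the 399.7 fpm, cdh1 gave 360.9, and krt5 was at 16.7 fpm there against 584.5 to 2473 fpm in the other 7.

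Of the 8 tumours, dgat1a tumour 1 had the highest level of each of the 6 muscle genes, and dgat1a tumours 3 and 5 stood above the other 5 in all of them but tpma and acta1b. Together the 6 took 0.102% of the reads of dgat1a tumour 1 (95% exact binomial interval 0.1004% to 0.103%), 0.0188% in tumour 3 and 0.0212% in tumour 5. In dgat1a tumours 2 and 4 they took 0.000949% and 0.000696%. In the egfp tumours the share was 0.000865%, 0.00203% and 0.000521%, so dgat1a tumours 2 and 4 lay within the egfp range. Intervals cover counting error only, and in bulk samples more muscle cells and more muscle RNA per cell cannot be told apart.

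The creatine kinase gene ckma was at 1.497, 3.26 and 0.425 fpm in egfp tumours 1 to 3. In dgat1a tumours 1 to 5 it was at 174.6, 0.793, 45.4, 0.911 and 59.03 fpm. Thus 3 of the 5 dgat1a tumours were above every egfp tumour and the other 2 were below egfp tumours 1 and 2, so the groups overlapped. The group values were 1.73 ± 1.43 fpm (SD, n = 3) in egfp and 56.1 ± 71.2 fpm (SD, n = 5) in dgat1a tumours. On the log2(fpm + 0.5) scale, which understates changes of low genes, dgat1a exceeded egfp by 3.01 (standard error 1.62), which did not pass the threshold (limma adjusted p = 0.405).

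The fast myosin light chain genes were also higher in dgat1a tumours 1, 3 and 5 than in the other 5 tumours. For mylpfa, which encodes the regulatory light chain, egfp tumours 1 to 3 were at 0.617, 3.92 and 0 fpm. The dgat1a tumours 1 to 5 were at 189.8, 0.250, 35.6, 0.547 and 31.2 fpm. Tumours 1, 3 and 5 again lay above all egfp tumours, and the difference was 3.04 on the log2 scale (standard error 1.76, limma adjusted p = 0.433).

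For mylz3, which encodes an alkali light chain of fast muscle myosin, the egfp tumours were at 5.73, 4.54 and 4.13 fpm, and the dgat1a tumours at 99.1, 5.80, 23.4, 4.12 and 23.9 fpm. It was the member with the least change between low tumours: the 3 egfp tumours and dgat1a tumours 2 and 4 lay between 4.12 and 5.80 fpm, each with over 100 reads. In those 5 tumours mylz3 had 103 to 139 reads, where mylpfa had 0 to 89. On the log2 scale the difference for mylz3 was 1.74 (standard error 0.87, limma adjusted p = 0.375).

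The thin filament genes were actc1b, acta1b and tpma. For actc1b, a sarcomeric actin gene active in zebrafish skeletal muscle, the egfp tumours were at 0.837, 6.26 and 0.425 fpm. Its dgat1a tumours were at 430.5, 2.04, 71.2, 1.17 and 76.2 fpm, with 9794 reads in tumour 1. The log2 difference between groups was the largest of the 6, at 3.63 (standard error 1.74, limma adjusted p = 0.358). The other actin gene, acta1b, was at 0.176, 0.309 and 0.154 fpm in egfp tumours and at 9.01, 0.417, 1.70, 0.0365 and 0.153 fpm in dgat1a tumours. In 6 of the 8 tumours acta1b had 10 reads or fewer, and dgat1a tumour 5, high in the other actin, had 4. Actin genes are close copies of each other, and how reads shared between them were counted is not given in the sources used here, so the split between both actin IDs is uncertain.

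The tropomyosin gene tpma was at 0.264, 2.51 and 0 fpm in egfp tumours. It was at 129.9 fpm in dgat1a tumour 1 and at 0.459, 3.68, 0.0365 and 2.25 fpm in dgat1a tumours 2 to 5. The highest tumour was 35.3 times the next for tpma, against 2.96 times for ckma and 4.15 to 5.65 times for the other 4 genes. For tpma, dgat1a tumour 5 lay below egfp tumour 2. The log2 fold changes of tpma and acta1b were 1.85 (standard error 1.56) and 1.04 (standard error 0.88), with limma adjusted p-values of 0.585 and 0.582. Without dgat1a tumour 1 they were 0.57 for tpma and 0.37 for acta1b, while those of ckma, mylpfa, actc1b and mylz3 were 2.14, 2.02, 2.61 and 1.12.

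**Figure D1:**
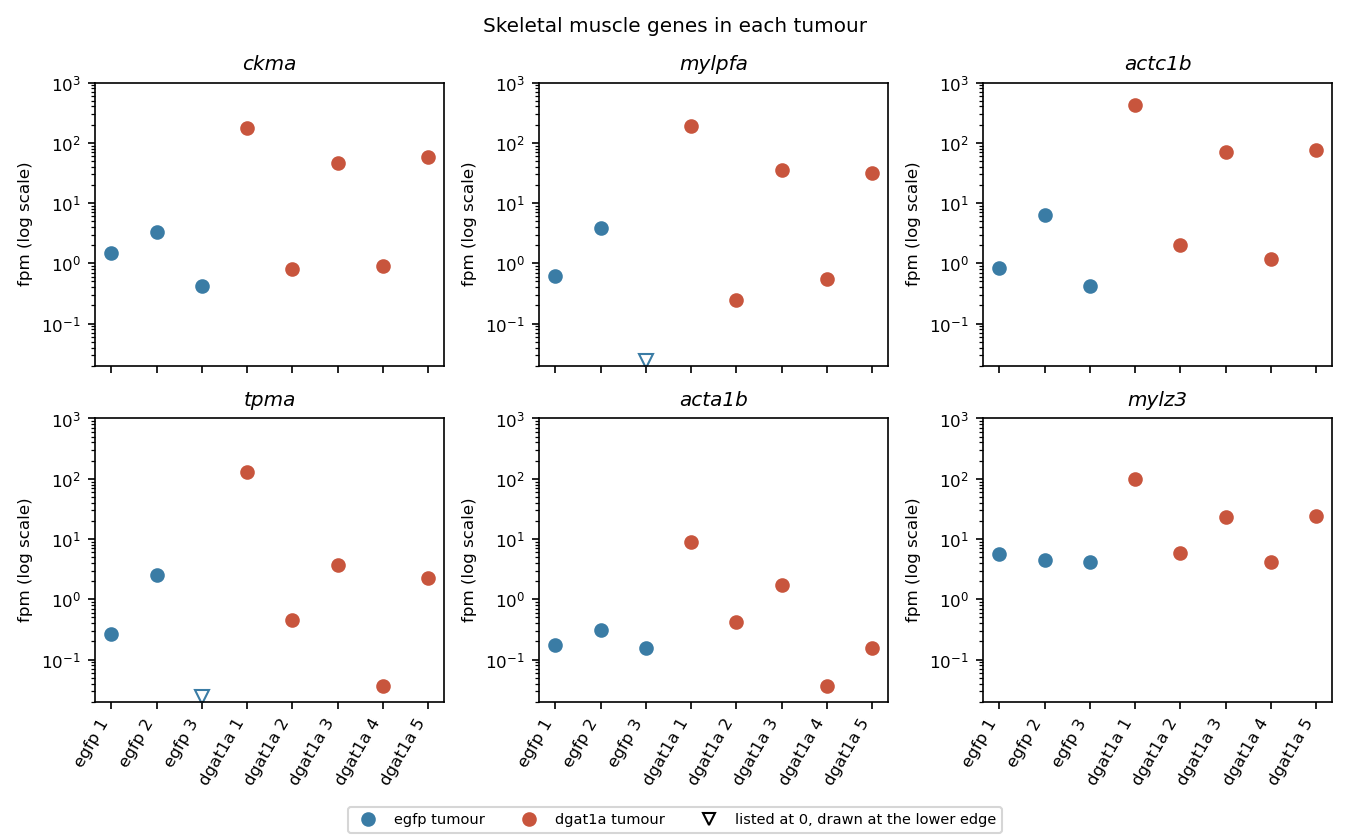
Level of each muscle gene in fpm on a log axis in the 3 egfp tumours (blue) and the 5 dgat1a tumours (red), with values listed at 0 drawn as open triangles at the lower edge. Tumour 1 of the dgat1a group is highest in every panel, and tpma is at 129.9 fpm there but at 3.68 fpm or less in all other tumours.

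By the mean of the 6 log2 values, the tumours ran from 6.78 in dgat1a tumour 1 through 4.11 in dgat1a tumour 3, 3.77 in dgat1a tumour 5 and 1.74 in egfp tumour 2 to 0.63, 0.54, 0.29 and -0.10 in dgat1a tumour 2, egfp tumour 1, dgat1a tumour 4 and egfp tumour 3. The distance from the highest to the lowest was 6.89 log2 units, and it was 4.21 without dgat1a tumour 1. Within the dgat1a group the SD of the single genes was 1.70 to 3.49 log2 units, against a median of 0.41 over all tested genes. Between 5 and 311 of the 16853 tested genes had a larger SD there than a given member. The genes were chosen to show this spread, with earlier results of these data known. A high rank was therefore built in, and nothing is read from it. Among the egfp tumours the SD was 0.16 for acta1b, 0.22 for mylz3 and 1.01 to 1.59 for the other 4 genes, where the median over all tested genes was 0.44. In these tumours acta1b had 4, 7 and 4 reads and lay below the added 0.5 fpm, which holds down its SD.

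Across the 8 tumours the 6 genes moved together. These genes were chosen as a shared sign of muscle, with earlier results of these data known. Likeness among them was therefore partly built in, and their correlations and p-values are given as description only. Pearson's r of their log2(fpm + 0.5) values was 0.75 to 0.99 over the 15 pairs, with a median of 0.91, and in all 15 pairs the exact permutation p adjusted over the pairs was under 0.05 (0.00149 to 0.0229). Spearman's rho was 0.40 to 0.98 with a median of 0.79, and 9 of the 15 pairs had an adjusted p under 0.05 (exact permutation; 0.00595 to 0.327 over all 15). The closest pair was ckma with mylpfa, at r = 0.99 and rho = 0.98. The pairs of acta1b with ckma, mylpfa, actc1b and mylz3 had the lowest rho, 0.40 to 0.62. When the 2 tumours farthest from the median of the first gene were left out, r was between 0.65 and 0.99 in 13 pairs. That of acta1b with mylpfa and with mylz3 was -0.04 in each case and rested on those tumours. For acta1b with ckma and with actc1b, r rose from 0.75 to 0.91 and from 0.79 to 0.93. In these 2 pairs the check left out dgat1a tumour 5, where acta1b was low and the other gene high. In every pair at least 1 of dgat1a tumours 3 and 5 stayed in. The check therefore cannot show whether r in the 13 pairs rests on the tumours with high muscle genes.

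The proportions among the genes differed between the tumours in which they were high. Ratios of reads to ckma reads within a tumour do not depend on library scaling, and ratios of 1 gene can be compared between tumours. For each ckma read there were 0.744 tpma reads in dgat1a tumour 1 (95% exact interval 0.709 to 0.780), 0.0812 in tumour 3 (0.0638 to 0.102) and 0.0382 in tumour 5 (0.0289 to 0.0495). These intervals do not overlap, so the differences exceed counting error, but there is 1 library per tumour and no repeat of the same tumour. The ratio was 0.770 in egfp tumour 2 (0.536 to 1.103), which had far fewer muscle reads than dgat1a tumour 1 but whose interval covers the value found there.

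The ratio of acta1b to ckma was 0.0516 in dgat1a tumour 1 (0.0446 to 0.0594), 0.0376 in tumour 3 (0.0263 to 0.0521) and 0.00259 in tumour 5 (0.000704 to 0.00664). The actc1b ratio differed less, at 2.47, 1.57 and 1.29 in the same order, and the mylpfa ratio was 1.09, 0.785 and 0.528. The mylz3 ratio was 0.567, 0.515 and 0.404 in these tumours. In the 5 tumours with few muscle reads mylz3 had 1.39 to 9.73 reads per ckma read.

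Other muscle genes gave values on both sides of this, and those named next were chosen after their values were seen. The parvalbumin genes encode calcium-binding proteins of fast fibres. For pvalb4 the reads per ckma read were 0.631, 0.715 and 0.580 in dgat1a tumours 1, 3 and 5, and for pvalb3 they were 0.289, 0.348 and 0.255. For pvalb1 the ratios were 0.103, 0.00508 and 0.000647, the last from a single read. The fast heavy chain gene myhz2 had 0.145, 0.00305 and 0.00259 reads per ckma read, and the slow heavy chain gene smyhc2 had 0.537, 0.125 and 0.175. In egfp tumour 2 the ratios of pvalb1, myhz2 and smyhc2 were 0.108, 0.0811 and 0.459, from 8, 6 and 34 reads.

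**Figure D2:**
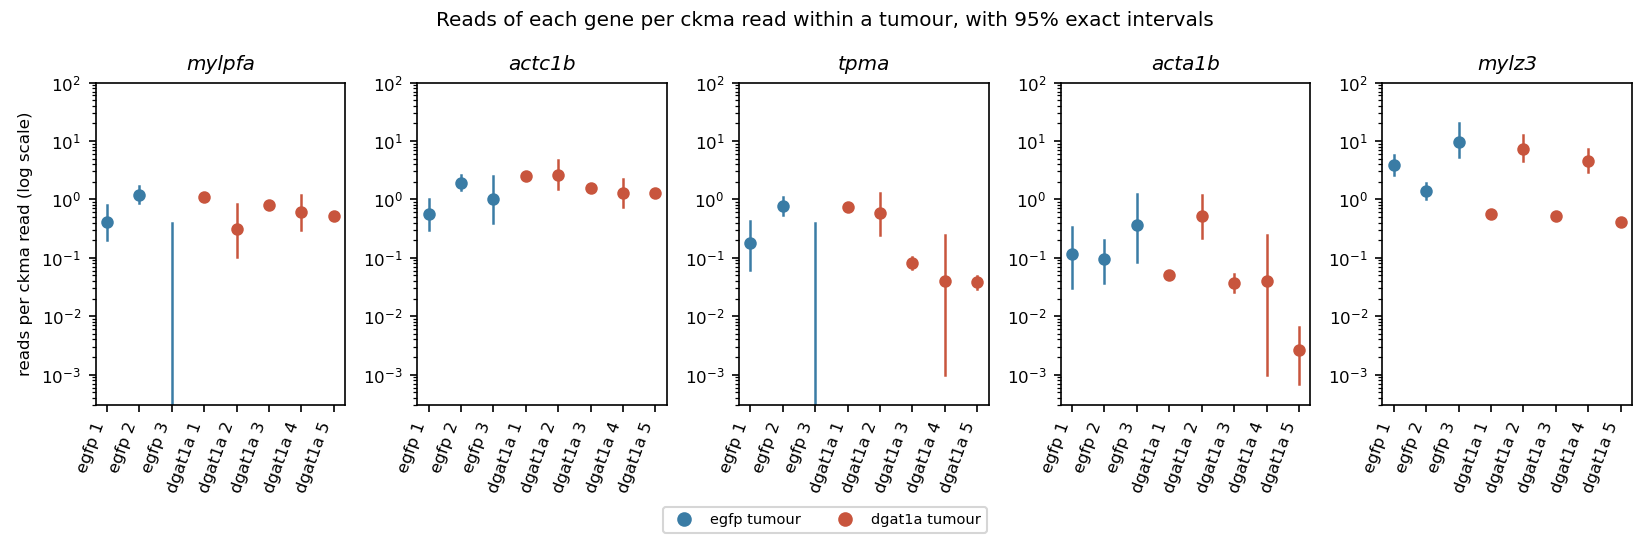
Reads of 5 muscle genes per ckma read within each tumour on a log axis, with 95% exact intervals for counting error; egfp tumours are blue and dgat1a tumours red, and a ratio from 0 reads has an interval but no point. For tpma the ratio is 0.744 in dgat1a tumour 1 and 0.0812 and 0.0382 in tumours 3 and 5, while for mylz3 these 3 tumours have the lowest ratios.

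Between the groups, 0 of the 6 genes passed limma's threshold of an adjusted p under 0.05, where 0.0534% of all tested genes did in either direction and 0.0356% as higher, and 0 had an unadjusted p under 0.05, where 15% did. In 0 of the 6 did the groups separate without overlap, against 10.4% of all tested genes. Their median log2 fold change was 2.43, beside 0.04 for all tested genes. A p that misses the threshold does not show that the groups were alike: with standard errors of 0.87 to 1.76 log2 units, differences of several fold would pass unseen.

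The count tests on whole reads recovered from the fpm values gave larger fold changes. The edgeR quasi-likelihood test gave log2 fold changes of 2.67 to 5.50 and called 0 of the 6 genes (adjusted p 0.249 to 0.366), with 4 at an unadjusted p under 0.05; over all tested genes the shares were 0.0178% and 16.5%. DESeq2 called 3 of them higher: ckma (adjusted p = 0.0258), actc1b (adjusted p = 0.0234) and mylz3 (adjusted p = 0.0323), where it called 2.32% of all tested genes higher. It gave tpma no p-value. DESeq2 called 0 of the 6 genes without dgat1a tumour 1, without dgat1a tumour 5, without egfp tumour 1 or without egfp tumour 3, and 1 without dgat1a tumour 3.

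**Figure D3:**
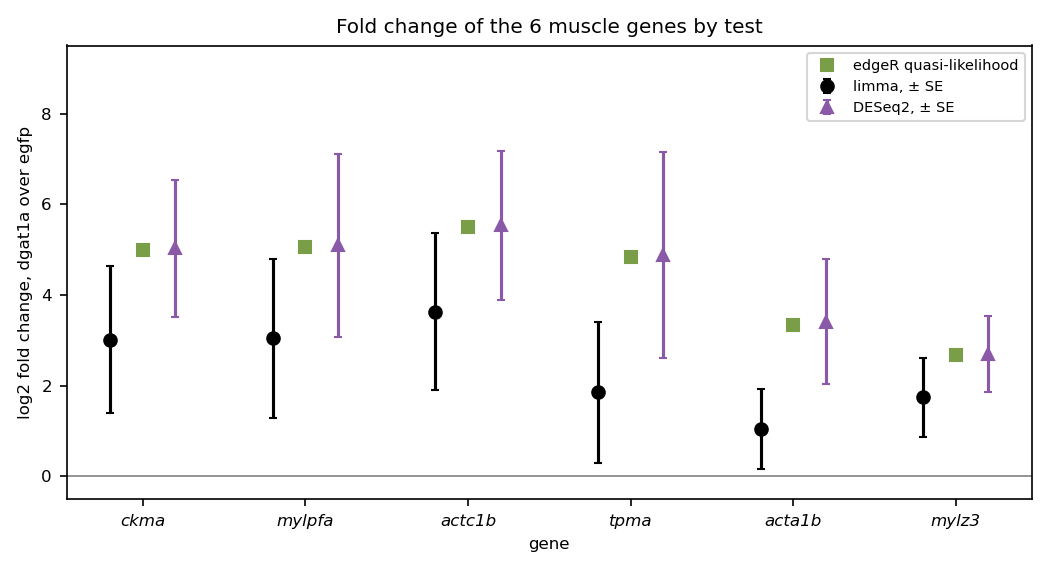
Log2 fold change of each muscle gene, dgat1a over egfp, from limma on log2(fpm + 0.5) (black, ± standard error), the edgeR quasi-likelihood test (green) and DESeq2 (purple, ± standard error) on recovered reads. For tpma the limma value is 1.85 and the DESeq2 value 4.88, the widest distance between both tests among the 6 genes.

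In the authors' deposited table, 0 of the 6 genes had an adjusted p under 0.05, where 3.67% of all listed genes were past that threshold and 1.55% were higher. The nearest in the authors' deposited table was mylz3, with a log2 fold change of 1.78 (standard error 0.58) and an adjusted p of 0.0511. For ckma, actc1b, acta1b and mylpfa the authors' deposited table lists adjusted p-values of 0.180, 0.240, 0.182 and 0.457. For tpma it lists a log2 fold change of 0.65 and no p-value. For all 6 genes the authors' fold changes were smaller than those of DESeq2 on recovered reads. They were 1.41 against 5.03 for ckma and 0.65 against 4.88 for tpma. Both are log2 fold changes of dgat1a over egfp, but their sizes cannot be set directly against each other. The reason for the authors' smaller values was not tested. The column names of that table are those of DESeq2, which leaves out a p-value where a single sample has an extreme count. A p-value is missing for 534 genes, or 2.38% of the authors' deposited table, and for 8 of the 97 IDs of the muscle lists described next. All 8, among them myhz2, pvalb1, pvalb2, smyhc1, smyhc2 and myl10, were highest in dgat1a tumour 1.

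The wider muscle programme was read from 7 lists of muscle genes, matched by name to 97 IDs. Of these, 74 passed the filter on low values, 21 of them only through dgat1a tumour 1 (a mean under 1 fpm over the other 7 tumours), so counts over the 74 are not counts over all muscle genes. The median log2 fold changes of single lists given below are over tested IDs only, and the filter can raise them. limma called 0 of the 74 at an adjusted p under 0.05, with 11 (14.9%) at an unadjusted p under 0.05, close to the 15% of all tested genes; the edgeR quasi-likelihood test called 0, and limma called 0 of all 97 when no filter was used. DESeq2 called 22 of the 74, or 29.7%, all higher, where it called 2.32% of all tested genes higher. IDs low in egfp tumours could pass the filter through high dgat1a tumours. Higher calls among the 74 were therefore partly built in, and nothing is read from that share. Over all 97 IDs, tested or not, dgat1a tumour 1 was the highest of the 8 tumours in 73, or 75.3%, beside 9.15% of all listed genes. Among the 53 IDs that averaged 1 fpm or more in the other 7 tumours it was the highest in 38, or 71.7%, beside 8.78% of all genes that did so. The DESeq2 count was 5 without dgat1a tumour 1, 13 without dgat1a tumour 3, 11 without dgat1a tumour 5, 34 without dgat1a tumour 2 and 35 without dgat1a tumour 4. It was 2 without egfp tumour 1 and 9 without egfp tumour 3.

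Thick filament genes had 11 IDs with summed levels of 4.36 to 6.92 fpm in egfp tumours. In dgat1a tumours 1 to 5 the sums were 137.5, 3.42, 36.6, 13.8 and 29.4 fpm. The median log2 fold change of the 8 tested was 1.46. Among the most abundant, mybpc2b, for fast myosin-binding protein C, was at 0 to 0.485 fpm in egfp tumours and at 28.2, 0.0834, 6.08, 0.182 and 4.73 fpm in dgat1a tumours. The other 2 most abundant IDs were mybphb, a related protein, at 21.01 fpm in dgat1a tumour 1 and 9.70 fpm in dgat1a tumour 4, and MYL1 (ENSDARG00000014196), at 31.8 fpm in dgat1a tumour 1 and 0 to 4.51 fpm elsewhere. The fast heavy chain genes myhz1.1, myhz1.2 and myhz1.3 were below 2 fpm in every tumour. They had 21, 19 and 39 reads in dgat1a tumour 1, 4 to 10 reads in dgat1a tumours 4 and 5, and 0 elsewhere. How reads shared between gene copies were counted is not given, so low counts of these IDs need not mean absence.

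Thin filament genes had 15 IDs, of which 11 were tested with a median log2 fold change of 1.73. The ID named TNNT3 (ENSDARG00000068457), a fast troponin T, which anchors troponin to tropomyosin, was at 0.0772 to 2.997 fpm in egfp tumours. In dgat1a tumours 1 to 5 it was at 131.8, 0.626, 25.1, 0.328 and 24.7 fpm. The ID named TNNC2, the calcium-binding troponin subunit of fast fibres, was at 62.7, 11.8 and 10.8 fpm in dgat1a tumours 1, 3 and 5 and at 0.0834 to 1.59 fpm elsewhere. The TPM2 ID, a tropomyosin, did not follow them closely: it was at 18.2 to 28.9 fpm in egfp tumours and at 7.55 to 59.6 fpm in dgat1a tumours.

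Calcium handling genes had 19 IDs, with 15 tested and a median log2 fold change of 1.103. The calcium pump gene atp2a1, which returns calcium to the sarcoplasmic reticulum, was at 0.352, 2.78 and 0.116 fpm in egfp tumours and at 138.5, 0.626, 26.4, 0.328 and 29.2 fpm in dgat1a tumours. Its limma log2 fold change was 3.07 (standard error 1.61, limma adjusted p = 0.396). The related atp2a1l was at 131.1, 41.1 and 49.3 fpm in dgat1a tumours 1, 3 and 5, and at 0.0772 to 2.03 fpm in the other 5.

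Genes of Z-discs, titin and muscle assembly had 14 IDs, 11 of them tested, with a median log2 fold change of 1.78. Both IDs named TTN, for the giant spring protein titin, were high in dgat1a tumours 1, 3 and 5, at 73.2, 18.7 and 18.2 fpm for one (ENSDARG00000000563) and 76.2, 33.1 and 21.9 fpm for the other (ENSDARG00000028213). The second was also at 8.31 fpm in dgat1a tumour 4, where the first was at 0.547 fpm. The SMYD1 ID ENSDARG00000009280, a methyltransferase of muscle assembly, was at 6.82 to 41.8 fpm, highest in dgat1a tumour 1 and lowest in dgat1a tumour 3.

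Energy supply genes split within the list of 17 IDs. The second muscle creatine kinase gene, ckmb, was at 0.0772 to 3.75 fpm in egfp tumours and at 156.4, 0.959, 37.1, 0.911 and 51.0 fpm in dgat1a tumours. For glycolytic enzymes with several copies only some followed: the ALDOA ID ENSDARG00000034470, an aldolase, was at 20.3, 5.99 and 6.45 fpm in dgat1a tumours 1, 3 and 5 and at 0.440 to 1.53 fpm elsewhere. The other ALDOA ID, ENSDARG00000011665, was at 213.4 to 695.9 fpm in all tumours and highest in dgat1a tumour 2. The most abundant PKM ID, a pyruvate kinase, was at 270.3 to 554.5 fpm, and the ENO3 ID, an enolase, was at 101.6 to 288.6 fpm and highest in egfp tumour 1.

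Slow fibre genes had 9 IDs with a median log2 fold change of 1.80 over the 8 tested. The heavy chain gene smyhc2 was at 93.8 fpm in dgat1a tumour 1, at 5.66 and 10.3 fpm in tumours 3 and 5, and at 0.0729 to 1.84 fpm in the other 5. The light chain gene myl10 was at 75.9, 1.84 and 7.83 fpm in dgat1a tumours 1, 3 and 5. The tropomyosin gene tpm3, which many cell types use, was at 250.8 to 408.9 fpm in all 8 tumours.

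Myogenic regulators, mostly transcription factors that set and keep muscle identity, differed among themselves. The symbols myog and myf6 of this list matched no ID and are missing here. Of 12 IDs, 2 were highest in dgat1a tumour 1, MYOD1 and MYF5, both too low to be tested. The MYOD1 ID had 32 reads there and 0 to 11 in the others, and the MYF5 ID had 7 reads there and 0 to 5 in the others. The MEF2C ID ENSDARG00000009418 was at 12.4 to 115.9 fpm in egfp tumours and at 51.3 to 231.7 fpm in dgat1a tumours, highest in tumour 3. The other MEF2C ID, ENSDARG00000029764, was highest in dgat1a tumours 3 and 5, at 21.7 and 18.2 fpm, and at 4.49 to 15.3 fpm elsewhere. The MEF2D and MEF2A IDs, general partners of the muscle factors, were at 65.4 to 97.6 and 30.1 to 66.6 fpm.

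**Figure D4:**
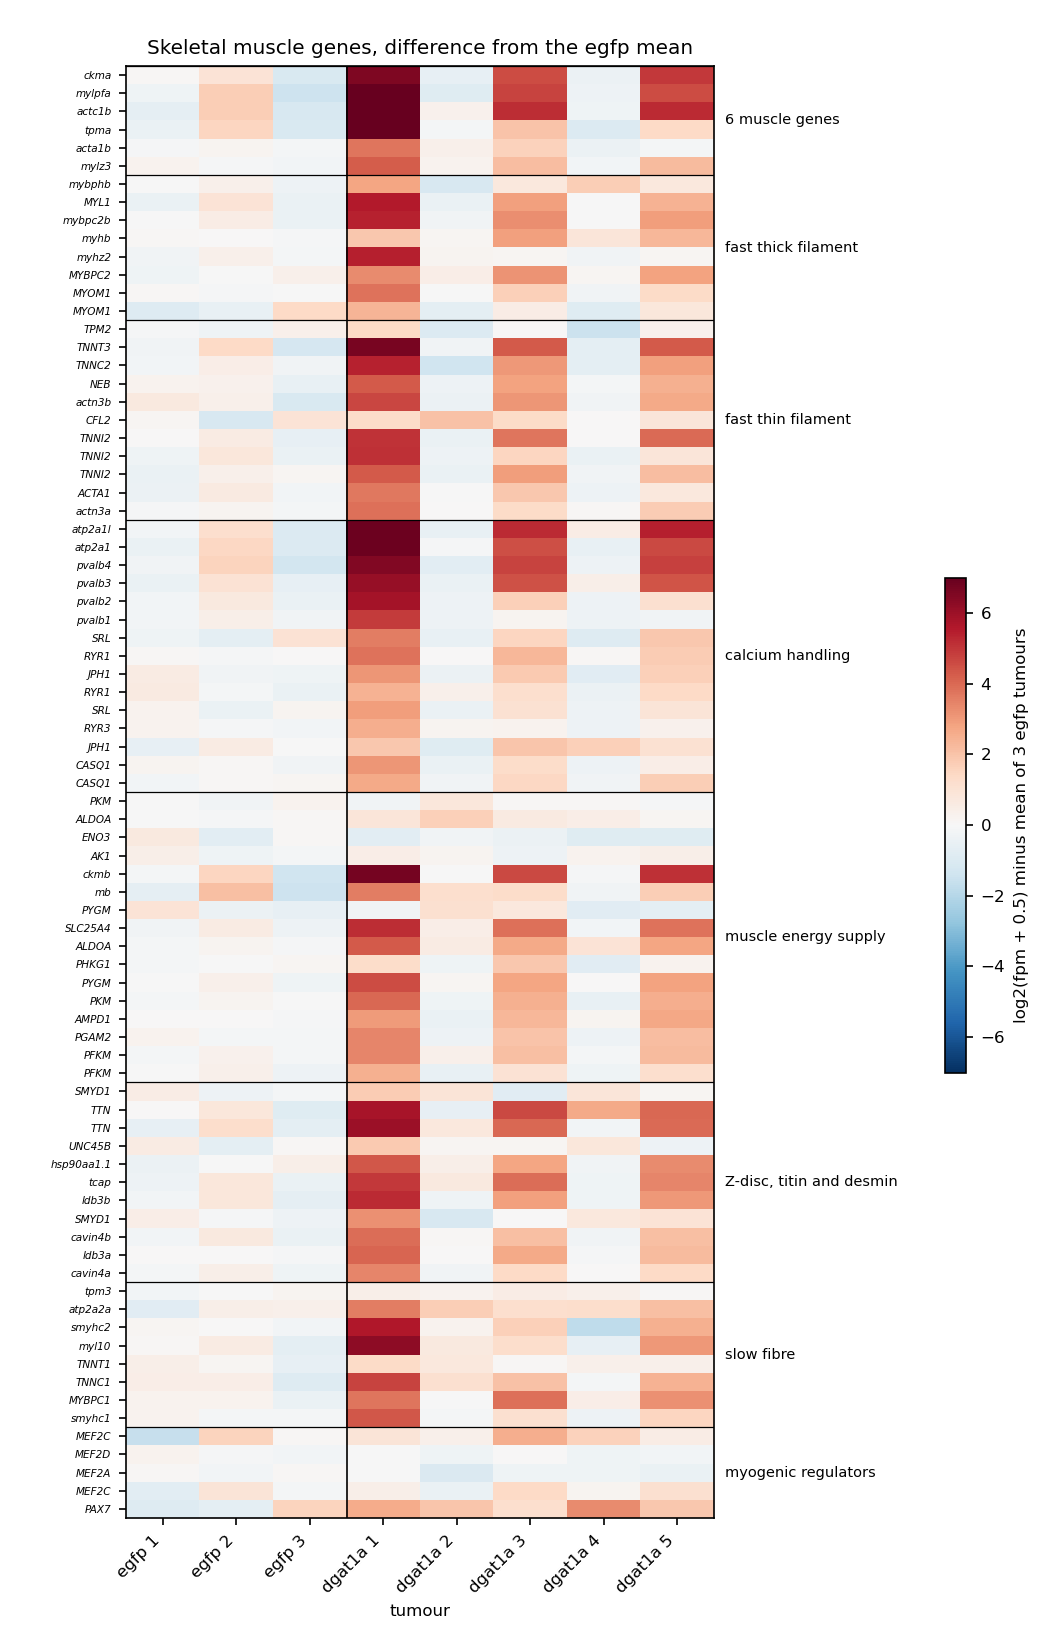
Difference of log2(fpm + 0.5) from the mean of the 3 egfp tumours (colour) for the 6 muscle genes and the 74 tested IDs of the 7 muscle lists (rows) in the 8 tumours (columns). Red columns stand over dgat1a tumours 1, 3 and 5 in most lists, while the 5 tested IDs of myogenic regulators at the bottom differ among themselves.

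Of 5154 other tested genes with a range of at least 2 log2 units over the tumours, 87 had an r of at least 0.9 with the mean of the 6 genes, as a description over 8 tumours. Of these 87, 45 were in the muscle lists, and 2 genes had an r of -0.9 or lower. The named genes most like the 6 were cavin4b (r = 0.999), a coat protein of muscle caveolae, ldb3b (0.997), a Z-disc protein, mybpc2b (0.99), TNNT3 (0.99), MYL1 (0.99), MUSTN1 (0.99), atp2a1 (0.99), si:ch73-367p23.2 (0.99), nmrk2 (0.99) and SYNPO2L (0.99), an actin-associated Z-disc protein. That MYL1 ID is ENSDARG00000014196, not mylz3. Of these 10, 6 were in the muscle lists. Some genes passed the filter on low values only through dgat1a tumour 1, among them 21 of the 74 tested muscle list IDs. The mean of the 6 was highest in that tumour, so a high r was partly built in for such genes. The share of muscle list IDs among the 5154 genes was not computed, so nothing is read from the counts of 45 and 6.

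The calls of the authors' deposited table include genes of this pattern. Among the 87 genes, 16 are higher in dgat1a tumours at an adjusted p under 0.05 in the authors' deposited table, which is 18.4% of the 87 and 4.60% of its 348 higher genes. The 87 were picked for following a mean that was highest in dgat1a tumours 1, 3 and 5. An excess of higher calls among them was therefore built in, and nothing is read from that share. Over the muscle lists the authors' deposited table calls 10 of 97 IDs higher, or 10.3%, beside 1.55% of all listed genes. They are myhb, MYBPC2, RYR1, ALDOA, SLC25A4, both TTN IDs, hsp90aa1.1, MYBPC1 and atp2a2a. Among them MYBPC2, a fast myosin-binding protein C, was at 0.264 to 0.695 fpm in egfp tumours and at 8.88, 0.793, 7.88, 0.547 and 6.19 fpm in dgat1a tumours. In the authors' deposited table it has a log2 fold change of 2.15 (standard error 0.59, adjusted p = 0.0143), and in limma it had 1.97 (adjusted p = 0.302). The calcium pump gene atp2a2a, of slow and heart muscle and many other cells, was at 3.17 to 7.85 fpm in egfp tumours and at 74.6, 20.4, 13.4, 14.5 and 26.2 fpm in dgat1a tumours. Its limma adjusted p was 0.215. All dgat1a tumours lay above all egfp tumours in 3 of these 10 genes, which had been called higher already, against 10.4% of all tested genes, so nothing is read from that count; the 3 were atp2a2a, myhb and the ALDOA ID ENSDARG00000034470.

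Lists for other cell types were mostly not highest in dgat1a tumour 1. This tumour was the highest for 0 of 7 tested smooth muscle IDs, 0 of 8 epidermal, 0 of 11 fibroblast, 0 of 11 leukocyte, 0 of 4 red cell, 1 of 5 endothelial and 2 of 9 pigment cell IDs, but for both tested heart IDs, which passed the filter only through that tumour. Over all tested genes the share was 9.18%. In lists this short, counts of 0 to 2 lie near that share and are not read as a result about these cell types. Among 7 heart IDs the sums were 0.749 to 1.54 fpm in egfp and 0.583 to 20.2 fpm in dgat1a tumours. The defining heart genes MYL7, for an atrial and ventricular light chain, and myh6 had 0 to 8 and 1 to 10 reads per library. The sum in dgat1a tumour 1 came mostly from tnni1c (14.02 fpm) and actc1a (4.13 fpm). Over 10 smooth muscle IDs the sums were 86.9 to 245.8 fpm in egfp and 154.1 to 366.7 fpm in dgat1a tumours, and dgat1a tumour 1 had the lowest of its group.

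The pigment cell sums were 15455, 19241, 3949, 7657 and 10663 fpm in dgat1a tumours 1 to 5, so of the tumours with high muscle genes dgat1a tumour 3 had the lowest pigment sum of all 8 and tumour 1 the second highest. In dgat1a tumours 1 and 3 pmela was at 9225 and 1398 fpm, but the SOX10 ID was at 1095 and 974 fpm. The sums therefore do not give the share of pigment cells. Epidermal sums were 1411, 1360 and 4747 fpm and fibroblast sums 2032, 1841 and 2650 fpm in dgat1a tumours 1, 3 and 5, within the range of the other 5 tumours except the fibroblast sum of tumour 5, the highest of all. Leukocyte sums were 957.6 to 988.5 fpm in these 3 tumours and 971.3 to 2132 fpm in the others. Red cell sums were 226.2 to 710.6 fpm in egfp and 60.5 to 324.3 fpm in dgat1a tumours, and endothelial sums 70.7 to 138.8 and 78.7 to 130.8 fpm. The part of other tissues in the muscle pattern was not tested.

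**Figure D5:**
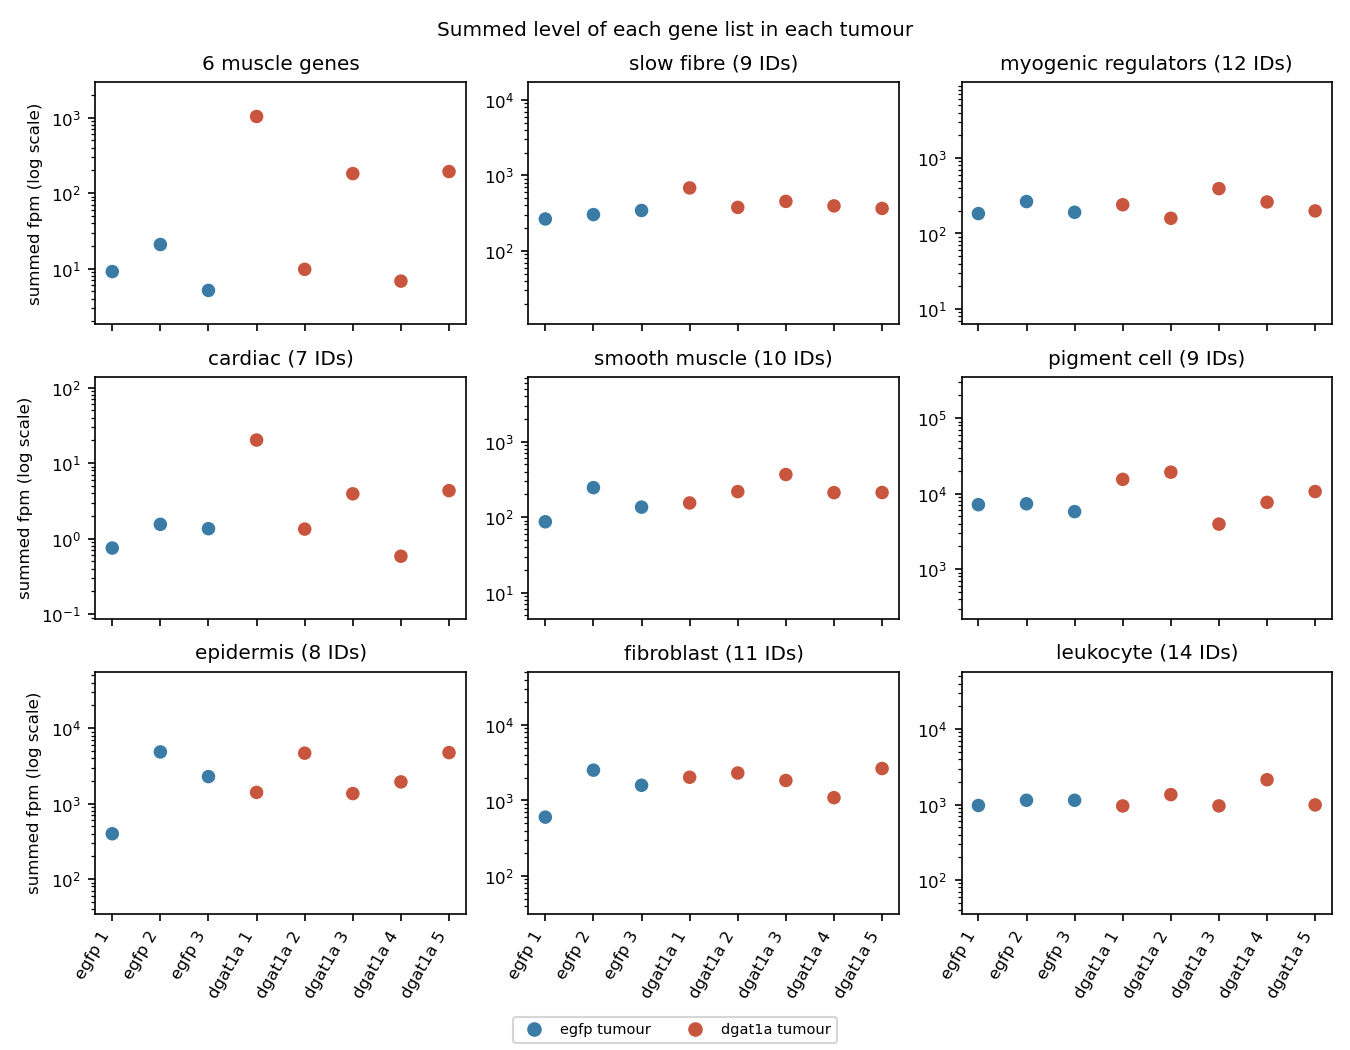
Summed fpm on log axes of the same span, in each egfp tumour (blue) and dgat1a tumour (red), for the 6 muscle genes and 8 gene lists. The muscle genes run from 5.14 to 1033 fpm, a wider spread than the other lists show, and the heart list is highest in dgat1a tumour 1 at 20.2 fpm.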

How the data were processed

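Per the submitters' processing notes, STAR 2.5.3, featureCounts 1.6.2, DESeq2 1.14.1 and the build GRCz11 were used; the annotation, strand setting and treatment of reads shared between genes are not given in the sources used here. The authors deposited a per-million signal (fpm), variance-stabilised values on a log2 scale, and a comparison with a mean signal, log2 fold change, standard error, score, p-value and adjusted p-value. In every fpm column 100% of values were whole multiples of 1 read within a tolerance of 0.01, so whole reads were recovered.

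A mean of 1 fpm or more kept 16853 genes, and limma 3.58.1 (R 4.3.3) was fitted to them (log2(fpm + 0.5), trend, transgene as factor, all 8 tumours), with Benjamini-Hochberg adjustment over all of them. edgeR 4.0.16 and DESeq2 1.42.0 were run on recovered reads as alternatives. The fits were checked on simulated data, where DESeq2 called more unchanged genes than limma or edgeR did. Each gene was drawn there on its own, with no muscle content shared by the genes of a tumour. The simulation therefore does not bear on the DESeq2 calls of muscle genes.

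Names came from a name table, which covered 21017 of 22416 IDs. Of 161 list symbols 144 matched, many only through human-style names without their copy letter, a rule chosen after the names were seen, so list members can include other copies. The members and lists were chosen with earlier results of these data known. Named genes are the 6, the 10 most alike by r, and the most abundant of each list; genes named besides these were chosen after their values were seen. Alternatives were pseudocounts, filters, scalings, tests, a replicate block and single tumours left out. Promoter motifs and protein sequences were not analysed here. A further part of the strain label is not reported here.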

Additional observations from a re-analysis of the deposited data

Results flagged for a closer look

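Within the 5 dgat1a tumours, tumour 1 stood far from the others on the linear fpm scale for 5 of the 6 muscle genes, by the gap to the next tumour as a share of the group's range (critical value 0.71 for 5 samples). These were mylpfa at 189.8 fpm (share 0.813), actc1b at 430.5 fpm (0.825), tpma at 129.9 fpm (0.972), acta1b at 9.01 fpm (0.814) and mylz3 at 99.1 fpm (0.792). On the log2(fpm + 0.5) scale 0 of the 6 genes gave such a gap, and ckma gave none on either scale. Chance alone flags about 1 in 20 groups of normally spread values, a rate that need not hold on the linear fpm scale. The 6 genes also share the same tumours.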

How the results depend on the processing

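The count of 0 of 6 muscle genes and 0 of 74 muscle list IDs past the threshold was the same in 20 of 21 other settings, all but DESeq2, with 3 and 22; with exact symbols only it was 0 of 25 IDs. The 124 fold changes of single muscle genes under other settings were all positive, and 3 passed, all in DESeq2. Their median log2 fold change was 1.57 without dgat1a tumour 1 and up to 4.95 in DESeq2. The median pairwise r was 0.89 to 0.95. Leaving out 1 tumour gave distances between the highest and lowest tumour of 4.21 to 6.89, and 8.17 log2 units came with a pseudocount of 0.1. In DESeq2, leaving out 1 tumour, a choice added after the data were seen, gave 0 to 3 of the 6 genes (0 without dgat1a tumour 1 or 5 or egfp tumour 1 or 3, 1 without dgat1a tumour 3). Of the 74 IDs it gave 5, 34, 13, 35 and 11 without dgat1a tumours 1 to 5, and 2, 27 and 9 without egfp tumours 1 to 3.

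The count over all genes, 9 in limma, was 866 in DESeq2, 3 in the edgeR quasi-likelihood test, 4 with dgat1a replicates 1 to 3 only and 0 with the replicate number as a block on those tumours; the cause was not tested. With 1 tumour left out it was 5 to 55, 5 without egfp tumour 1 and 55 without egfp tumour 2. With the block 0 of the 6 muscle genes passed and their median log2 fold change was 3.23, as in the same tumours without it. After removing group means, tumours with the same number correlated at 0.24, 0.07 and 0.01, with a mean of 0.11. The 12 other pairings ran from -0.25 to 0.20, with a mean of -0.03. So few pairs cannot show whether the numbers stand for pairs. The titles do not say what a shared number means, so the main fit used no block. Depth limits acta1b most, with 1 to 10 reads in 6 tumours.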

Other observations

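The genes that ran against the muscle genes were few. RGS20, a regulator of G protein signalling, had an r of -0.93 with the mean of the 6 genes over the 8 tumours, at 1.32 to 2.16 fpm in egfp tumours and at 0, 0.918, 0.507, 1.28 and 0.535 fpm in dgat1a tumours 1 to 5. A gene named si:zfos-955e8.1 also had an r of -0.93, with 4.44, 9.17 and 8.48 fpm in dgat1a tumours 1, 3 and 5 and 12.9 to 28.3 fpm in the others. 

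Of the 2 IDs named PAX7, a factor of muscle stem cells and of some pigment cells, ENSDARG00000100398 was at 0.264, 0.397 and 3.67 fpm in egfp tumours and at 8.04, 5.01, 2.67, 13.4 and 4.73 fpm in dgat1a tumours. Its highest value was in dgat1a tumour 4, a tumour with few muscle reads.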
